A study of Mus musculus with 2 samples.

Results

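The cells described here were the leukemia cells richest in the transcripts of *C1qbp*, *Srm*, *Dkc1*, *Hspd1*, *Hspe1* and *Apex1*. These 6 genes act in the nucleolus, in mitochondrial translation and protein folding, in polyamine synthesis and in DNA repair. Cells had to show 500 or more genes to be kept, the UMIs (unique molecular identifiers, 1 for each transcript captured) of the 6 genes were summed and divided by all UMIs of the cell, and the 10% of kept cells with the highest share in both libraries together were taken. This chose 741 of 7411 kept cells out of 8309 deposited, 353 in the WT-labelled library and 388 in the KO-labelled library. The rule was thus a threshold on a continuous measure: the last cells inside it held 5 of 3378, 10 of 6761 and 7 of 4734 UMIs in the 6 genes, and the first cells outside it held 4 of 2706, 11 of 7453 and 5 of 3389. Because the rule used the transcripts of these cells, every comparison of chosen with other cells is a description without a test.

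The study examined loss of *Kat2a*, a histone acetyltransferase gene, in mouse acute myeloid leukemia driven by the *MLL-AF9* fusion. Donor mice were *Kat2a* Flox/Flox and carried Mx1-Cre (*Kat2a* KO) or lacked it (*Kat2a* WT), and both groups received pIpC, which induces the interferon-responsive Mx1 promoter. Excision was tested 4 to 6 weeks after injection. Marrow was depleted of lineage-positive cells, transduced with the *MLL-AF9* retrovirus and grown in lethally irradiated recipients. Frozen terminal leukemias, 5 WT and 4 KO, were thawed, pooled by genotype, sorted as live YFP-positive singlets and captured as 1 library of 10x Genomics 3′ RNA-seq per genotype.

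The individual leukemias in a pool carry no label, so a genotype has no replicate, genotypes could not be tested against each other, and the intervals given here (95%) cover counting error only. The labels do not state which barcode ending belongs to which genotype; the ending 1 was taken as KO and 2 as WT, after the study's own code. *Kat2a* itself was higher in the KO-labelled library, at 84.0 to 154 CPM (counts per 1000000 UMIs) in other and chosen cells against 9.77 to 26.8 CPM in the WT-labelled library, in the direction opposite to the label. The excised allele keeps the last exon, near which this assay reads, so the level of this transcript checks neither label. The libraries differed in depth, with medians of 2588.5 (WT) and 1884 (KO) UMIs over kept cells, and 28 barcodes occurred in both, of which 1 was chosen in both, and 7 chosen cells carried a shared barcode.

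The nucleolus is where ribosomal RNA is transcribed, trimmed and modified before it is assembled with ribosomal proteins, and the size of this machinery follows how fast a cell grows. Growing cells also need chaperones, which fold newly made proteins in the cytosol and proteins imported into mitochondria, and they need nucleotides and polyamines for nucleic acid synthesis. In myeloid leukemia the immature, dividing cells are known for high ribosome production, and cells that mature towards granulocytes shut it down while they fill with granule proteins.

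The 6 genes differ in place and role. *C1qbp* (chromosome 11, 70977836 to 70983026, minus strand) encodes a mitochondrial matrix protein needed for mitochondrial translation. *Srm* (chromosome 4, 148591503 to 148594993, plus strand) encodes spermidine synthase, an enzyme of polyamine synthesis. *Dkc1* (chromosome X, 75095854 to 75109777, plus strand) encodes dyskerin, the pseudouridine synthase of H/ACA small nucleolar ribonucleoproteins (snoRNPs) and a telomerase component. *Hspd1* and *Hspe1* encode the mitochondrial chaperonin Hsp60 and its partner Hsp10. *Apex1* (chromosome 14, 50924968 to 50927139, plus strand) encodes the main apurinic/apyrimidinic endonuclease of base excision repair. All positions are those of GENCODE M21 on GRCm38. *Hspd1* (chromosome 1, 55077835 to 55088243, minus strand) and *Hspe1* (chromosome 1, 55088132 to 55091307, plus strand) lie head to head and overlap by 112 bases at their 5′ ends, away from the 3′ ends that the assay reads.

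RefSeq promoter windows (GRCm38.p6, from 250 bases before to 50 after a transcript start) were held for 5 of the 6 genes. They were searched on both strands for CACGTG, the E-box bound by Myc family proteins, for TTCNNGAA and GAANNTTC, neighbouring inverted repeats of the heat shock element, and for CCGGAAG, an ETS core. 2 stretches are shown because they hold the clustered matches among the rule's genes, in capitals.
*Hspe1*, chr1:55088055-55088081, plus strand, 93 to 67 bases before its start: tccgTTCTAGAACCTTCCGGAAGgccc
*Apex1*, chr14:50924894-50924975, plus strand, 55 bases before to 26 after its start: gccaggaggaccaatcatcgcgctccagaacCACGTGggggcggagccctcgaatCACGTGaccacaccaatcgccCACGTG
The *Hspe1* stretch lies between the *Hspe1* start and the start of 1 of the 2 *Hspd1* windows, within the annotated 5′ untranslated exon of *Hspd1* on the other strand, and its capitals cover 2 TTCNNGAA matches, the GAANNTTC match between them and 2 CCGGAAG matches, 1 on each strand, which overlap the GAANNTTC match and the second TTCNNGAA. The capitals in *Apex1* are 3 E-boxes, at 24 bases before the RefSeq start, at the start and at 21 bases after it, and the last 8 bases of this stretch fall in the annotated 5′ untranslated exon. The *C1qbp* window held CCGGAAG 4 bases after the start and none of the other motifs, the *Dkc1* window held none of the 4, and 1 *Hspd1* window held an E-box at 80 bases before its start while the other covers the letters printed for *Hspe1*.

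Such matches were not rare. Counted per gene with at least 1 window, CACGTG stood in 12.6% of 2102 expressed genes, in 16.5% of 249 genes higher in the chosen cells and in 10.8% of 185 genes lower there, against 8.09% of all 27025 genes. TTCNNGAA was found in 8.43% of the higher genes, 8.80% of expressed genes and 9.60% of all genes. CCGGAAG was found in 25.3% of the higher genes, 26.1% of expressed genes, 12.97% of the lower genes and 9.93% of all genes. These are matches of letters in a window and give no evidence of binding.

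By the rule, the 6 transcripts made up 2270 CPM (2198 to 2344) in chosen cells of the WT-labelled library and 2411 CPM (2329 to 2496) in those of the KO-labelled library, against 392 and 359 CPM in other cells. No UMI of any of the 6 was seen in 3698 of the other cells (55.4%). Chosen cells mostly carried several of the transcripts: 105 cells held all 6, 148 held 5, 149 held 4, 151 held 3, 118 held 2, and 70 held a single one. *C1qbp* was detected in 82.7% of chosen cells in the WT-labelled library and 77.6% in the KO-labelled library, against 19.2 and 16.9% of other cells. Chosen cells were deeper, so that share was also read with every cell thinned to 1000 UMIs, where it was 41.0 and 48.1% in chosen and 7.35 and 8.20% in other cells. *Dkc1* was the gene seen in the fewest chosen cells, 49.9% (WT) and 41.0% (KO), and in 17.6 and 16.3% after thinning.

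To read each gene apart from its own part in the rule, cells were ranked again on the other 5 genes and the sixth was measured. All 6 were higher in cells chosen on the other 5, by 3.10- to 4.22-fold. *Srm* had 299 CPM (273 to 327) in such cells against 70.9 CPM (65.8 to 76.3) in the rest of the WT-labelled library, and 265 CPM (238 to 294) against 66.6 CPM (60.5 to 73.1) in the KO-labelled library, 4.22- and 3.98-fold. *Dkc1* followed with 4.01- and 3.79-fold. The chaperonin genes were close to these, with 3.27- and 3.40-fold for *Hspd1* and 3.84- and 3.26-fold for *Hspe1*. *Apex1* (3.71- and 3.10-fold) and *C1qbp* (3.49- and 3.22-fold) had the lowest values in the KO-labelled library. The 6 transcripts occurred together in cells of both libraries. The 6 genes were chosen with earlier results of these data known, so this describes the rule and is no separate support for it. Between 77.1% (without *C1qbp*) and 91.6% (without *Dkc1*) of the cells chosen on 5 genes were among those chosen on 6. Rankings that share 5 genes overlap in large part by construction. Deeper cells and cells in the same phase of the cycle or stage of maturation can share many transcripts, and their part in the joint occurrence was not tested.

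**Figure D1:**
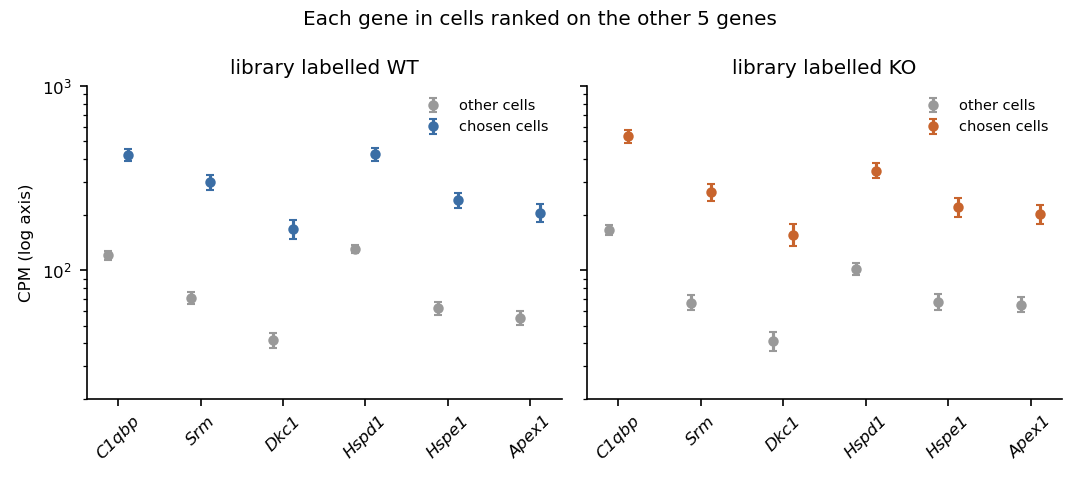
Level of each of the 6 genes in CPM (log axis) in cells ranked on the other 5 genes, in the WT-labelled library (left) and the KO-labelled library (right). Coloured points are the chosen 10% and grey points the other cells, with exact 95% Poisson intervals for counting error; every coloured point lies above its grey point, by 3.10- to 4.22-fold.

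With every cell at 1000 UMIs, levels of other groups moved with the number of the 6 genes' UMIs in steps rather than at a single limit. Proteins of the snoRNPs went from 739 CPM in cells of the WT-labelled library with none of these UMIs through 1197 (1 UMI), 1996 (2) and 2112 (3) to 2507 CPM with 4 or more, and from 1035 to 3875 CPM in the KO-labelled library. Large-subunit ribosomal proteins went from 70083 to 115373 CPM (WT) and from 60495 to 97354 CPM (KO). Secondary and tertiary granule transcripts went the other way, from 96073 to 22107 CPM and from 86284 to 14958 CPM. The chosen cells were taken from the upper end of this ranking. Counting error at 1000 UMIs also spreads cells over neighbouring steps, so the steps cannot tell a gradual range from separate groups. At this depth most cells held 0 UMIs of the 6 genes, 2641 (WT) and 2252 (KO), and 75 and 48 cells held 4 or more, so the upper steps rest on few cells.

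**Figure D2:**
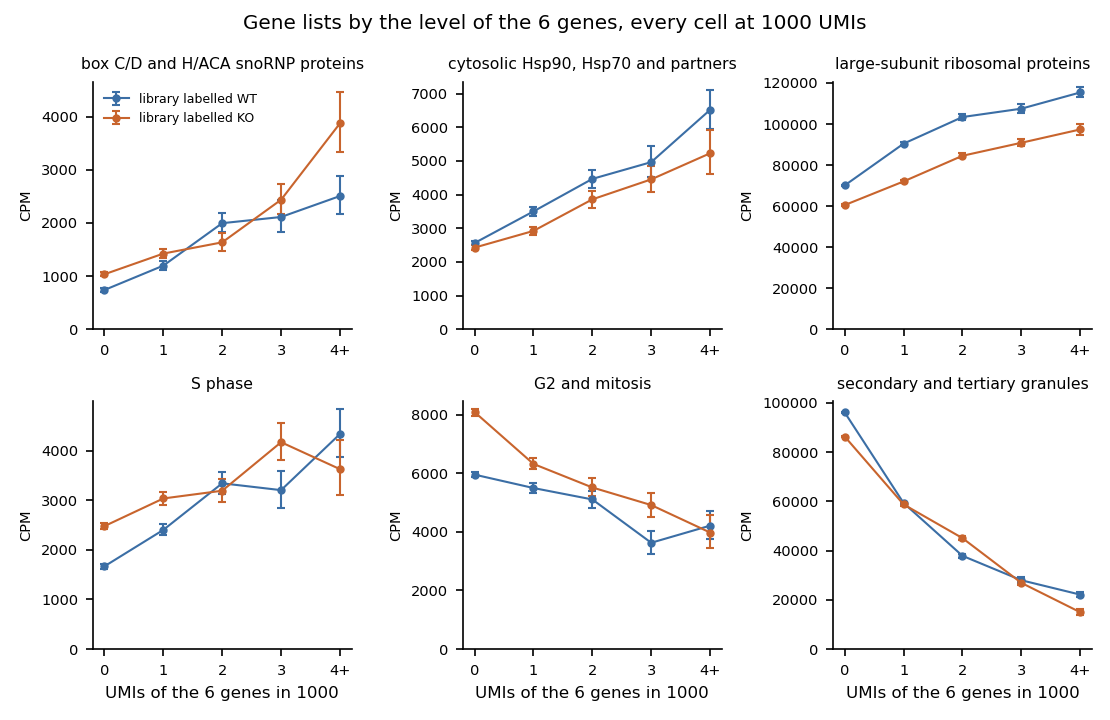
Summed level of 6 gene lists in CPM (vertical axes, from 0) against the number of UMIs of the 6 genes in a cell thinned to 1000 UMIs (horizontal axes), blue for the WT-labelled library and orange for the KO-labelled library, with exact 95% Poisson intervals. SnoRNP, Hsp90/Hsp70 and ribosomal protein levels were higher at each step from 0 to 4 or more UMIs in both libraries, and secondary and tertiary granule levels were lower, from 96073 to 22107 CPM (WT) and from 86284 to 14958 CPM (KO).

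Outside the rule, 2731 genes were detected in 10% or more of the kept cells and are called expressed genes here. Of these, 309 (11.3%) were 1.5-fold or more higher in chosen than in other cells in both libraries, and 229 (8.39%) were 1.5-fold or more lower in both. The median log2 ratio of all expressed genes was 0.11 in the WT-labelled library and 0.10 in the KO-labelled library, and 58.7 and 56.4% of them lay above 0. Counts over gene lists below use the same limit and are read against these shares. Of the 309 higher genes, 128 (41.4%) belonged to 1 of the lists, as did 46 of the 229 lower genes (20.1%) and 534 of all expressed genes (19.6%). The chosen cells gave more UMIs, with medians of 4416 (WT) and 2807 (KO) against 2498 and 1833 in other cells. Against other cells of the same library matched on total UMIs (medians of 4412 and 2806), 140 genes were higher and 124 lower, of which 124 and 104 were among those counted above.

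The 12 genes with the highest ratios in both libraries were *Nsun2*, *Mif*, *Pa2g4*, *Galk1*, *Nop56*, *Hspa9*, *Eef1g*, *Cdk4*, *Gar1*, *Ncl*, *Nop10* and *Slc25a4*. *Mif*, which encodes macrophage migration inhibitory factor, stood at 811 CPM in chosen and 297 CPM in other cells of the WT-labelled library, and at 812 and 221 CPM in the KO-labelled library, log2 ratios of 1.45 (1.35 to 1.54) and 1.88 (1.77 to 1.99). *Galk1*, which encodes galactokinase, had 175 against 64.6 CPM (WT) and 202 against 54.0 CPM (KO). *Nsun2*, a cytosine methyltransferase of transfer RNA, had 149 against 54.5 CPM and 165 against 56.3 CPM. Beside these metabolic and RNA-modifying genes stood *Cdk4*, the kinase of the G1 phase, with 345 against 125 CPM and 404 against 154 CPM, and *Slc25a4*, which encodes a mitochondrial ADP/ATP carrier, with log2 ratios of 1.62 and 1.34.

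**Figure D3:**
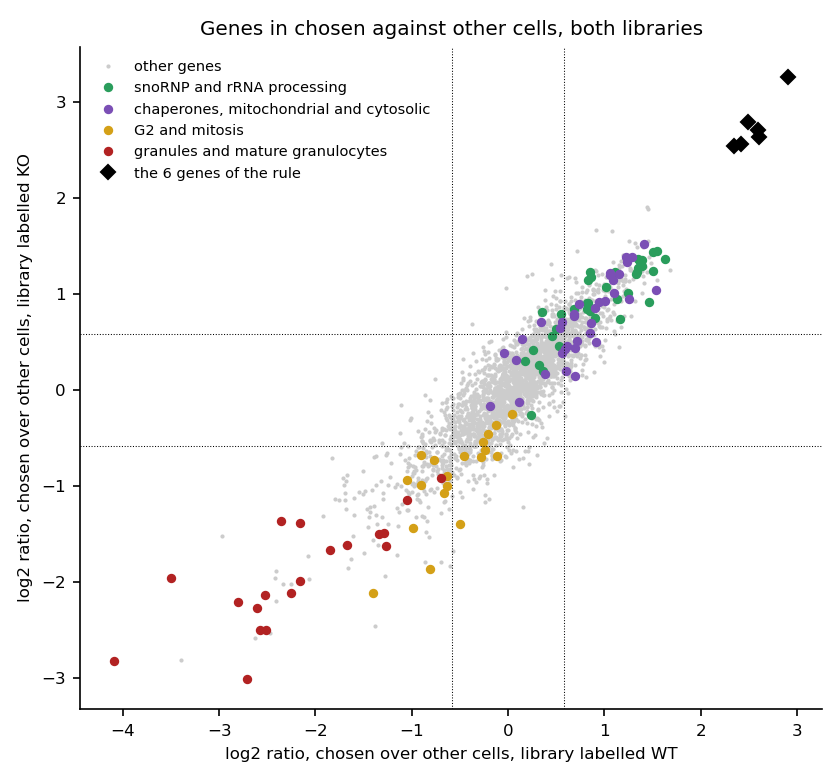
Log2 ratio of CPM, chosen over other cells, of each expressed gene in the WT-labelled library (horizontal) and the KO-labelled library (vertical), with dotted lines at 1.5-fold. Green points are snoRNP and rRNA processing genes, purple points chaperones of mitochondria and cytosol, yellow points G2 and mitosis genes, red points granule and mature granulocyte genes, and black diamonds the 6 genes that set the choice; 309 genes lie in the upper right field and 229 in the lower left field.

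Genes of ribosome production were higher as a group. All 6 expressed snoRNP protein genes of the 10 listed passed 1.5-fold in both libraries, with median log2 ratios of 1.41 (WT) and 1.32 (KO). *Gar1*, *Nop10* and *Nhp2*, which with *Dkc1* form the H/ACA core that converts uridine to pseudouridine, had log2 ratios of 1.62 and 1.36, 1.35 and 1.36, and 1.35 and 1.27. *Fbl*, the methyltransferase of box C/D particles, had 432 against 157 CPM in the WT-labelled library and 360.5 against 191 CPM in the KO-labelled library, ratios of 1.47 and 0.92. *Nop56*, a scaffold of the same particles, had 195 against 68.7 CPM and 179.5 against 66.5 CPM. Of 30 expressed rRNA processing factors, 20 were higher and none was lower, with medians of 0.84 and 0.87.

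Among those factors, *Npm1*, the abundant nucleolar chaperone, stood at 1271 against 493 CPM (WT) and 1533 against 612 CPM (KO), log2 ratios of 1.37 (1.29 to 1.44) and 1.33 (1.25 to 1.40). *Ncl*, which encodes nucleolin, had ratios of 1.39 and 1.36, and *Pa2g4*, a growth-regulated nucleolar protein gene, had 1.55 and 1.44. *Rrs1* and *Rpf2*, which bring the 5S particle into the large subunit, had 1.51 and 1.24, and 1.34 and 1.22. Not every factor followed: *Nol7* had 0.17 and 0.30, *Sbds*, which acts late on the large subunit, 0.32 and 0.25, and *Abt1* 0.24 and −0.27. Of 6 expressed RNA polymerase I and III subunit genes, 1 passed the limit, *Polr2e*, which all 3 nuclear polymerases share, with 1.03 and 0.93. *Polr1d* had 0.53 and 0.49 and *Polr3gl* 0.05 and 0.15. Against UMI-matched cells the medians of the snoRNP genes were 0.88 and 0.84 and those of the processing factors 0.55 and 0.67.

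Ribosomal protein genes had smaller ratios. All 46 large-subunit genes lay above 0 in both libraries, against 58.7% (WT) and 56.4% (KO) of all expressed genes. Their medians were 0.49 (WT) and 0.55 (KO). Of the 46, 6 passed 1.5-fold, a share close to the 11.3% of all expressed genes. Together the large-subunit genes took 11.2% of UMIs in chosen and 8.11% in other cells of the WT-labelled library, and 9.37 and 6.48% in the KO-labelled library. *Rpl5*, which joins the 5S RNA, had the highest ratios of the list, 0.84 and 1.11, and *Rpl12* had 0.84 and 0.81. Of the 33 small-subunit genes 4 passed, also close to the share of all expressed genes, with the same medians of 0.49 and 0.55. *Gnb2l1*, the ribosome scaffold also known as Rack1, had 0.84 and 0.96. Many ribosomal protein genes and *Npm1* have near-identical pseudogene copies, so their counts are uncertain.

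**Figure D4:**
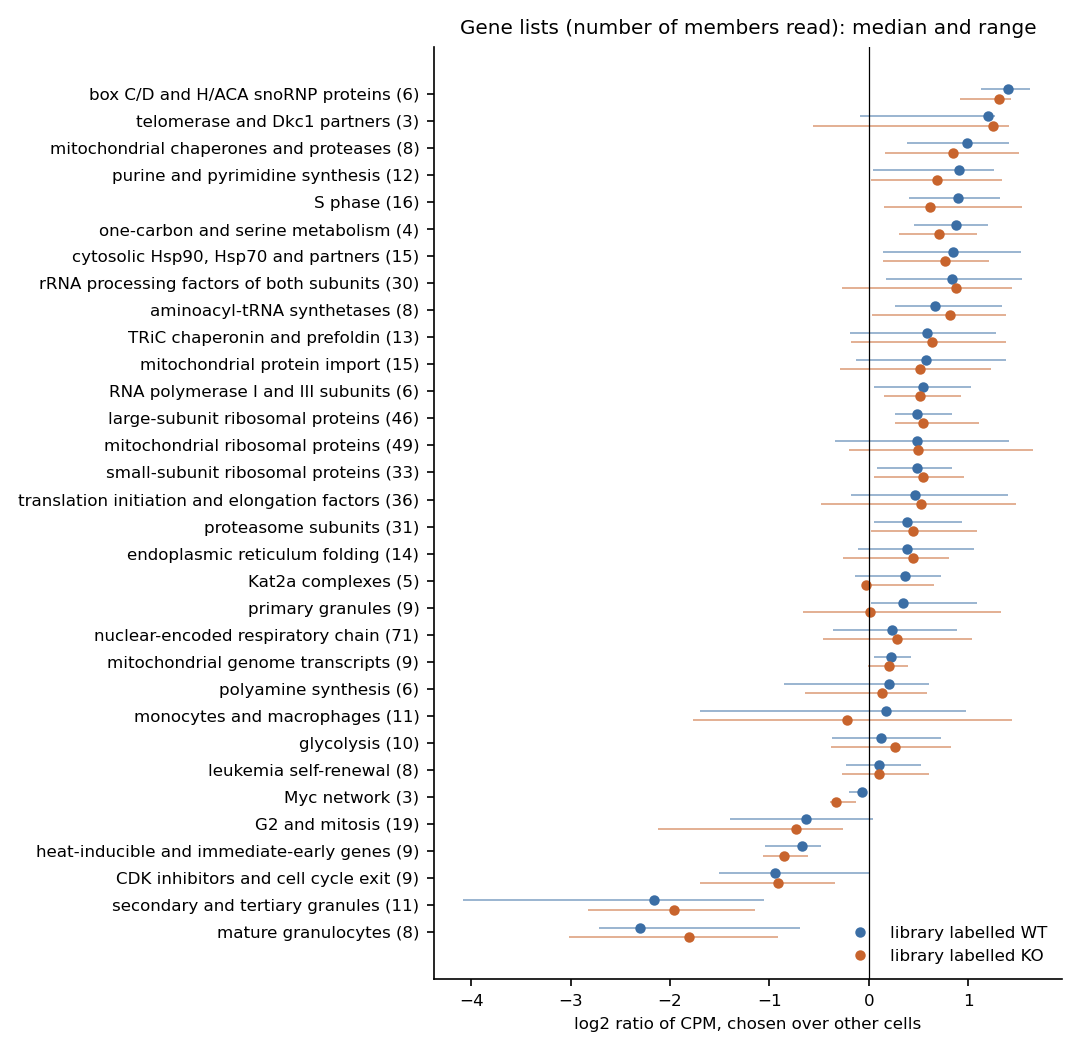
Median (points) and range (lines) over the expressed members of each gene list of the log2 ratio of CPM, chosen over other cells, in the WT-labelled library (blue) and the KO-labelled library (orange), with the number of members in parentheses and the lists in the order of their WT medians. SnoRNP proteins lie at the top (1.41 and 1.32) and mature granulocyte genes at the bottom (−2.31 and −1.81).

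Beside *Hspd1* and *Hspe1*, 4 of 8 expressed genes of mitochondrial chaperones and proteases passed the limit, with medians of 0.99 (WT) and 0.84 (KO). *Hspa9*, the mitochondrial Hsp70, had 243 against 91.1 CPM (WT) and 247 against 86.4 CPM (KO), ratios of 1.41 (1.24 to 1.58) and 1.51 (1.32 to 1.71). *Clpp*, the matrix protease, had 1.22 and 1.39, and the prohibitin genes *Phb* and *Phb2*, whose products form rings in the inner membrane, had 1.24 and 1.33, and 1.06 and 1.19. *Grpel1*, the exchange factor of *Hspa9*, did not pass, with 0.56 and 0.38, nor did *Dnajc19* with 0.39 and 0.17. Of 15 expressed genes of mitochondrial protein import, 6 passed. *Tomm40*, the channel of the outer membrane, had 1.30 and 1.16 and *Chchd4*, which oxidizes imported proteins, 1.39 and 1.23, while *Tomm22* had 0.16 and 0.02 and *Timm17b* −0.12 and −0.29.

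In the cytosol, 10 of 15 genes of Hsp90, Hsp70 and their partners were higher, with medians of 0.85 and 0.77. *Hspa8*, the constitutive Hsp70, stood at 1864 against 840 CPM (WT) and 1767 against 768 CPM (KO), ratios of 1.15 (1.09 to 1.21) and 1.20 (1.13 to 1.27). *Hsp90ab1* and *Hsp90aa1*, both Hsp90 genes, had 1.06 and 1.22, and 1.09 and 1.15. Their partners spread more widely, from *Fkbp4* (1.53 and 1.03) and *Ppid* (1.26 and 0.95) down to *Dnaja1* (0.15 and 0.53). Of 13 genes of the chaperonin TRiC and of prefoldin, which fold actin and tubulin, 5 passed; *Cct3* led with 1.29 and 1.39, and the prefoldin genes *Pfdn5* (−0.19 and −0.17) and *Pfdn4* (0.08 and 0.31) did not. Of 14 genes of folding in the endoplasmic reticulum, 5 passed, among them *Pdia4* (1.06 and 0.77) and *Calr* (0.78 and 0.81), while *Hspa5*, the main Hsp70 of that compartment, had 0.33 and 0.22.

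Heat-inducible and immediate-early genes, which dissociation and heat are known to switch on, moved the other way. All 9 expressed genes of their list were below 0 in both libraries and 6 were 1.5-fold or more lower, with medians of −0.67 (WT) and −0.85 (KO). *Dusp1*, a phosphatase of stress kinases, had 674 against 1389 CPM (WT) and 952 against 1996 CPM (KO), and *Fos* had 1134 against 1692 CPM and 1147 against 2072 CPM. *Dnajb1*, the heat-inducible Hsp40 gene, had −0.48 and −0.76. Against UMI-matched cells the medians of the heat-inducible list were smaller, −0.23 and −0.35.

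Genes of nucleotide synthesis were higher in part. Of 12 expressed genes of purine and pyrimidine synthesis 7 passed, with medians of 0.91 (WT) and 0.69 (KO). *Impdh2*, the enzyme that commits purines to guanine nucleotides, had 274 against 121 CPM (WT) and 290.0 against 115 CPM (KO), and *Paics* and *Umps*, of the purine and the pyrimidine pathway, had 1.09 and 0.81, and 1.07 and 0.73. *Nme1* and *Nme2*, which encode nucleoside diphosphate kinases and lie in tandem with shared readthrough transcripts, had 1.16 and 1.17, and 1.26 and 1.27. The salvage gene *Aprt* had 0.04 and 0.02. Of 4 expressed genes of one-carbon and serine metabolism, *Mat2a*, which makes the methyl donor S-adenosylmethionine, had 1.20 and 1.09, and *Sfxn1*, a mitochondrial serine carrier, 1.08 and 1.04; *Psph* and *Tyms* did not pass.

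The polyamine list did not follow *Srm*. None of its 6 expressed genes outside the rule was 1.5-fold higher and 1 was lower, with medians of 0.21 and 0.13. *Eif5a*, the translation factor that carries hypusine made from spermidine, had 0.57 and 0.59, and *Dohh*, which completes hypusine, 0.61 and 0.41. *Sat1*, the enzyme that acetylates polyamines for breakdown, was lower, with −0.85 and −0.64.

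Translation factors spread widely. Of 36 expressed initiation and elongation factors 11 passed and none was lower, with medians of 0.47 and 0.53. *Eif4a1*, the helicase that opens messenger RNA for initiation, had 2766 against 1390 CPM (WT) and 3347 against 1556 CPM (KO), and *Eef1g*, of the elongation complex, had 1.40 and 1.49. *Eif1* had −0.06 and −0.00, and *Eif4ebp1*, a repressor of cap-dependent initiation, −0.18 and −0.40. Of 8 expressed aminoacyl-tRNA synthetase genes and cofactors 5 passed, led by *Eef1e1*, a scaffold of the synthetase complex, with 1.34 and 1.38.

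Genes of mitochondrial translation and respiration were read from separate lists. Of 49 mitochondrial ribosomal protein genes 10 passed, with medians of 0.49 (WT) and 0.50 (KO), among them *Mrpl12* (1.42 and 1.11) and *Mrps10* (1.08 and 1.66). Of 71 nuclear genes of the respiratory chain 4 passed, with medians of 0.24 and 0.29; *Cycs*, which encodes cytochrome c, had 0.89 and 1.04. None of the 9 transcripts of the mitochondrial genome passed, and their medians were 0.22 and 0.21. Of 10 expressed glycolysis genes, *Ldha*, which makes lactate, passed with 0.73 and 0.83, *Gapdh* had 0.08 and 0.17, and the list's medians were 0.13 and 0.27. Of 31 proteasome genes 5 passed, with medians of 0.38 and 0.44.

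Partners of *Dkc1* and *Apex1* in their other roles gave mixed values. *Ruvbl1* and *Ruvbl2*, ATPases that assemble both snoRNPs and telomerase, had 1.20 and 1.41, and 1.27 and 1.25, and *Tep1*, a telomerase-associated protein gene, had −0.09 and −0.56. *Fen1*, a flap endonuclease of base excision repair that is also used in replication, had 0.98 and 0.65. *Myc*, a known activator of ribosome production, was detected in too few cells to count as expressed, and had 99.98 against 30.3 CPM in the WT-labelled library and 63.8 against 37.6 CPM in the KO-labelled library, ratios of 1.72 (1.44 to 2.00) and 0.76 (0.39 to 1.12). Its partner gene *Max* had −0.19 and −0.39, and none of the 3 expressed genes of the Myc network other than *Myc* passed.

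Read against all other cells, the chosen cells carried more S phase and fewer mitotic transcripts. Of 16 expressed S phase genes 8 were higher and none was lower, with medians of 0.90 (WT) and 0.61 (KO). *Mcm2*, of the replicative helicase, had 121 against 50.7 CPM (WT) and 168 against 57.7 CPM (KO), and *Mcm6* had 1.21 and 1.19. Of 19 G2 and mitosis genes none was higher and 10 were lower, with medians of −0.63 and −0.73. *Ube2c*, which drives exit from mitosis, had 91.5 against 241 CPM (WT) and 71.2 against 310 CPM (KO), *Cdc20* had −0.98 and −1.44, and *Top2a*, which is already made in S phase, had 0.04 and −0.25. Against UMI-matched cells the G2 and mitosis medians were −1.04 and −1.29. The S phase ratios above were read against all other cells, whose median UMIs were lower. S phase medians against UMI-matched cells are not given here, and the part of depth in the S phase ratios was not tested.

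Counted per cell at 1000 UMIs, 2 or more S phase UMIs were found in 66.5% of chosen cells of the WT-labelled library (61.2 to 71.4) and 66.6% of those labelled KO (61.5 to 71.3), against 36.3 and 50.4% of other cells. 10 or more G2 and mitosis UMIs were found in 10.1 and 9.36% of chosen cells, against 21.1 and 30.2% of other cells. The S phase list thus had the same sign as the growth genes, and the G2 and mitosis list the opposite one. In cells of 0.2% or more S phase UMIs and under 0.5% G2 and mitosis UMIs, of which 134 (WT) and 139 (KO) were chosen, the snoRNP medians were 1.03 and 0.88, those of the rRNA processing factors 0.66 and 0.76 and those of the cytosolic chaperones 0.70 and 0.69. Chosen cells of this subset were deeper too, with median UMIs of 4946 (WT) and 3704 (KO) against 3407 and 1896. The part of depth in these medians was not tested. Free RNA in the droplets also adds UMIs to the counts of such lists, and its part was not tested.

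Genes of cell cycle exit were lower. Of 9 expressed genes of CDK inhibitors and exit factors none was higher and 6 were lower, with medians of −0.94 and −0.92. *Btg2*, an antiproliferative gene, had 70.1 against 198 CPM (WT) and 44.5 against 145 CPM (KO), and *Cdkn2d*, which encodes the inhibitor p19, had −1.51 and −1.09. *Cdkn1a*, the p21 gene, had 0.01 and −0.63.

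Granule genes of late granulocyte maturation had the lowest ratios. All 11 expressed genes of secondary and tertiary granules were lower, with medians of −2.16 (WT) and −1.96 (KO), as were all 8 of mature granulocytes, with −2.31 and −1.81. *Camp*, an antimicrobial peptide of secondary granules, had 2737 against 16623 CPM (WT) and 3338 against 16184 CPM (KO), and *Ltf*, which encodes lactoferrin, had 19.5 against 332 CPM and 53.4 against 379 CPM. *S100a8*, an abundant cytosolic protein gene of neutrophils, had 3598 against 21377 CPM and 3700.4 against 20945 CPM. The other genes among the 8 lowest were *AA467197*, *Stfa2l1*, *Ifitm6*, *S100a9* and *C5ar1*, the last the receptor of a complement fragment. Secondary and tertiary granule transcripts together took 2.02% of UMIs in chosen and 8.21% in other cells of the WT-labelled library, and 1.94 and 7.87% in the KO-labelled library.

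Cells rich in granulocyte transcripts lay mostly outside the choice. The share of cells with 10% or more of their UMIs in the granulocyte lists was 8.78% (6.04 to 12.2) and 12.4% (9.26 to 16.1) of chosen cells against 48.4 and 45.1% of other cells. Where both chosen and other cells had under 1% of UMIs in these granule lists (187 chosen cells labelled WT and 252 labelled KO), the snoRNP medians were 0.92 and 0.97, those of the rRNA processing factors 0.47 and 0.68 and those of the cytosolic chaperones 0.60 and 0.72. Those of the large-subunit ribosomal proteins were 0.09 and 0.22, and the count of higher genes was 165 in place of 309. Chosen cells were still deeper in this subset, with median UMIs of 4456 (WT) and 2919 (KO) against 2525 and 1482.5. The part of depth in these medians was not tested.

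Genes of the primary granules, which immature promyelocytes make, did not follow those of the later granules. *Ctsg*, a serine protease, was higher, with 3664 against 1723 CPM (WT) and 2972 against 1182 CPM (KO), *Mpo*, which encodes myeloperoxidase, had 0.94 and 0.48, and *Elane*, neutrophil elastase, had 0.35 and −0.35. The medians of 9 expressed genes were 0.34 and 0.01, and against UMI-matched cells they were −0.14 and −0.11. *Calr* is in this list and in that of the endoplasmic reticulum. Of 14 listed genes of *MLL-AF9* self-renewal, 8 were expressed and none of these passed. *Hoxa9*, a direct target of the fusion, had 191 against 177 CPM (WT) and 118 against 120.5 CPM (KO), ratios of 0.11 (−0.07 to 0.28) and −0.03 (−0.29 to 0.22). *Meis1*, its cofactor gene, had 0.04 (−0.34 to 0.40) and 0.16 (−0.28 to 0.59). *Cd34*, a marker of immature cells in the same list, was detected in too few cells to count as expressed. It was more than 1.5-fold higher in both libraries, with 0.77 (0.39 to 1.13) and 0.74 (0.47 to 1.01). *Myb* had 0.53 and 0.45.

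Monocyte genes were split. Of 11 expressed genes, *Ly86*, *Irf8* and *Ccr2* were higher and *Lyz2*, *Ccl6* and *Apoe* lower. *Irf8*, which directs monocyte and dendritic fate, had 296 against 150.4 CPM (WT) and 160.2 against 92.1 CPM (KO), and *Lyz2*, the lysozyme gene that granulocytes also express, had 1184 against 3845 CPM and 1046 against 3204 CPM. *Apoe*, a lipid carrier gene of macrophages, had −1.07 and −0.73, but 0.30 and 1.03 against UMI-matched cells. Of the lymphoid list 1 gene was expressed, *Cd79b*, with 0.16 and 0.10.

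A small set of chosen cells carried transcripts of red cells and platelets. With a limit of 10 UMIs over 12 such genes, set after the values were seen, 14 of 388 chosen cells of the KO-labelled library were found (3.61%, 1.99 to 5.98), and 0 of 353 of the WT-labelled library, which allows a share of up to 0.850% by the limit of 3 cells and of 1.04% by the exact interval. Among other cells there were 6 of 3157 (KO) and 6 of 3513 (WT), so that 14 of the 20 such kept cells labelled KO were chosen and none of the 6 labelled WT. These 14 cells held 3412 of the 3465 UMIs of the list in chosen cells labelled KO, from 15 to 1885 each, and no other chosen cell of that library held more than 5. Within the list, globin genes (*Hbb-bs*, *Hba-a1*, *Hbb-bt*, *Hba-a2*) had the most UMIs in 8 of them, and in 6 platelet genes such as *Pf4*, *Gp1bb* and *Ppbp*. *Klf1*, the erythroid master regulator, gave 5 UMIs in these cells.

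Myeloid transcripts in these cells were read from 3 genes: the sum of *Mpo*, *Elane* and *Prtn3* had a median of 1 UMI and a maximum of 4, against a median of 13.5 in the remaining chosen cells of that library. They held 2 to 23 UMIs of the 6 genes of the rule. Without all cells of this kind 308 genes were higher and 227 lower in chosen cells, and the snoRNP medians were 1.41 and 1.34. The summed level of the red cell and platelet list was 12.8 CPM in chosen cells labelled WT and 2570.1 CPM in those labelled KO, against 257 and 307 CPM in other cells. The 741 cells are therefore called by the transcripts that chose them, not by a cell type.

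The chosen share was 9.13% of kept cells in the WT-labelled library (353 of 3866, 8.24 to 10.1) and 10.9% in the KO-labelled library (388 of 3545, 9.94 to 12.0). It was 8.27 and 13.5% when cells with 1000 or more genes were used, and 9.34 and 10.7% when cells were chosen on counts thinned to 1000 UMIs. With 1 library per genotype the genotype, the pool and the capture cannot be told apart.

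Within the chosen cells, 139 of 2609 expressed genes with at least 50 UMIs in each library (5.33%) were 1.5-fold or more higher in the KO-labelled library and 110 (4.22%) were lower, and the median log2 ratio of KO over WT was 0.07. The 5 highest were *Serinc3* (1.32), *H2-K1* (1.22), *Cd9* (1.18), *Mtf1* (1.09) and *Nutf2* (1.09). Other cells gave 1.35 for *Serinc3*, 0.64 for *H2-K1*, 0.56 for *Cd9*, 0.73 for *Mtf1* and 0.97 for *Nutf2*, so all 5 had the same sign there. The 5 lowest were *Xist* (−2.23), *Fam111a* (−1.28), *Tpr* (−1.27), *Tifab* (−1.21) and *F10* (−1.16), again with the same sign in other cells, from −1.38 for *Xist* to −0.76 for *Fam111a*. *Xist* is made from the inactive X chromosome of female cells, and the sex of the pooled leukemias is not given in the sources used here. *Kat2a* had 2.52 in chosen and 3.10 in other cells.

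The snoRNP and rRNA processing lists differed little between the libraries within the chosen cells. The summed level of snoRNP genes had a log2 ratio of 0.11 (0.04 to 0.17) in chosen and 0.28 in other cells. That of the rRNA processing factors had 0.06 (0.03 to 0.10) in chosen and 0.07 in other cells. Cytosolic chaperones were lower in sum, at −0.22 (−0.26 to −0.17) in chosen and −0.23 in other cells. The median over their genes was −0.08 in chosen cells. Ribosomal protein genes were lower in the KO-labelled library, by −0.25 (large subunit) and −0.26 (small subunit) in chosen cells and by −0.32 and −0.32 in other cells. S phase genes had 0.10 in chosen and 0.36 in other cells, and G2 and mitosis genes 0.03 and 0.33. Primary granule genes were at −0.50 (−0.52 to −0.47) in chosen and −0.08 in other cells, with *Elane* at −0.71 and −0.02 and *Prtn3* at −0.72 and −0.32. *Myc* had −0.65 (−1.04 to −0.26) in chosen and 0.31 (0.06 to 0.56) in other cells. None of these differences between chosen and other cells was tested, and the 14 cells with red cell and platelet transcripts, all in the KO-labelled library, are among the chosen cells.

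**Figure D5:**
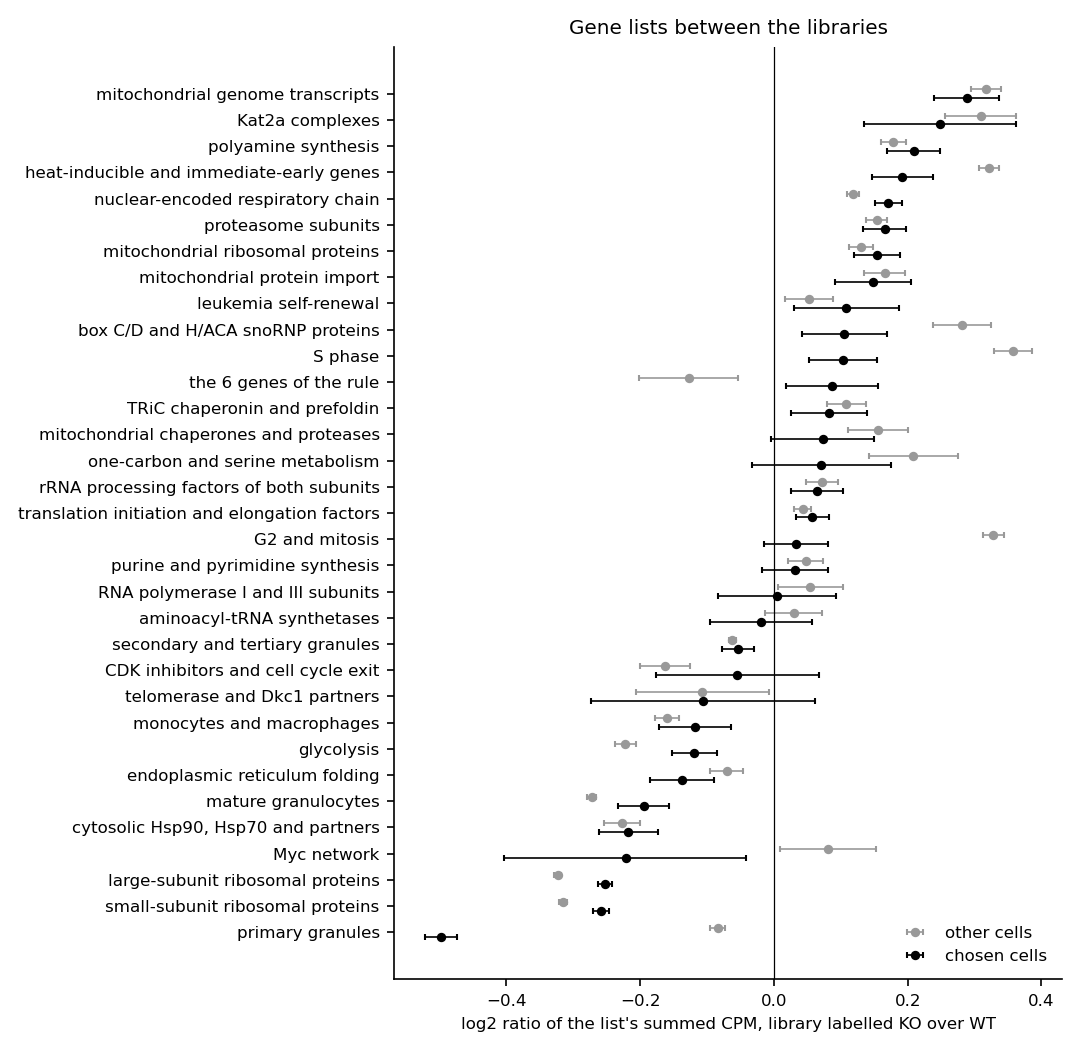
Log2 ratio of the summed CPM of each gene list with 3 or more expressed members, KO-labelled library over WT-labelled library, in chosen cells (black) and other cells (grey), with exact 95% intervals for counting error. Among the lists drawn, mitochondrial genome transcripts lie highest in chosen cells, at 0.29, ribosomal proteins lie at −0.25 and −0.26, and primary granule genes lie lowest, at −0.50 in chosen and −0.08 in other cells.

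Variation from cell to cell, which the study set out to examine, was read at the cells' own depth and at 1000 UMIs. The coefficient of variation (CV, the standard deviation over the mean of counts scaled to 10000 per cell) had a median log2 ratio of KO over WT of 0.28 over 2731 genes in chosen cells, above 0 for 88.6% of them. With every cell thinned to 1000 UMIs it was 0.04, above 0 for 56.6%. The median CV in chosen cells went from 1.82 (WT) and 2.22 (KO) to 3.04 and 3.12. Counting noise adds to a CV and is larger at fewer UMIs per cell. It bears on the thinned value, and also on the ratio at own depth. There the chosen cells had medians of 4416 (WT) and 2807 (KO) UMIs. The part of counting noise in either ratio was not tested. Other cells gave 0.21 at their own depth and 0.03 after thinning, and the difference between chosen and other cells was not tested. Of the expressed genes of complexes that contain Kat2a, *Eny2*, of the deubiquitinating module, was higher in chosen cells, with 0.72 (WT) and 0.66 (KO), and 4 others, *Taf10*, *Tada1*, *Taf6l* and *Taf12*, did not pass. *Kat2a* itself was detected in too few cells to count as expressed. It was higher in chosen than in other cells, with 26.8 against 9.77 CPM (WT) and 154 against 84.0 CPM (KO).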

How the data were processed

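Per the submitters' processing notes, the authors ran Cell Ranger 1.3.1, and the deposited matrix holds whole-number UMI counts of 27998 genes in 8309 cells, not normalized. The notes name the build mm10 without saying for which step, and the study's methods name another Cell Ranger version; positions printed here are from GENCODE M21 (GRCm38), by gene identifier. Cells were kept with 500 or more genes, and UMIs were summed per library over chosen or other cells and scaled to CPM; log2 ratios of these sums carry exact conditional binomial intervals, levels exact Poisson intervals and shares Clopper-Pearson intervals. Doublets were kept and no caller was run; an alternative left out, in both libraries, the top 5% of cells by UMIs. Thinning drew 1000 UMIs per cell without replacement (seed 1) and left out 7 chosen cells labelled WT, 14 labelled KO, and 59 and 180 other cells. No test was made between genotypes or between chosen and other cells.

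The 6 genes, the 35 gene lists and the limits were chosen with earlier results of these data known. Genes named by rule were the 12 highest and 8 lowest in both libraries, the 3 members of each list with the most UMIs, the 5 highest and 5 lowest between libraries, and *Kat2a*, *Myc*, *Hoxa9*, *Meis1* and *Cd34*; further list members were named after their values were seen, to show the spread of a list. Symbols shared by more than 1 gene (56) were kept apart by identifier. Scripts were tested on simulated data (Python 3.11.15, numpy 2.4.6, scipy 1.17.1, pandas 2.3.3). Some members of the lists are not reported here.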

Additional observations from a re-analysis of the deposited data

Results flagged for a closer look

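Some ratios had opposite signs on either side of a comparison, with intervals for counting error that both left out 0; the differences themselves were not tested. *Elane* had a log2 ratio of chosen over other cells of 0.35 (0.32 to 0.37) in the WT-labelled library and −0.35 (−0.38 to −0.32) in the KO-labelled library. *Myc* had a log2 ratio of KO over WT of −0.65 (−1.04 to −0.26) in chosen cells and 0.31 (0.06 to 0.56) in other cells. The summed Myc network list had −0.22 (−0.40 to −0.04) in chosen and 0.082 (0.010 to 0.15) in other cells. *Camp* had 0.29 (0.23 to 0.35) in chosen and −0.039 (−0.050 to −0.027) in other cells.

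The cells with under 500 genes, which the choice did not use, also held transcripts of the 6 genes, at 71.7 CPM (41.0 to 116) in the WT-labelled library and 129 CPM (103 to 160) in the KO-labelled library, in 203 and 695 cells. Both values were below the 392 and 359 CPM of the other kept cells.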

How the results depend on the processing

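No paired analysis was possible because each genotype gave a single library. A ratio counted as moved when it changed by more than 1.5-fold, a share when it left its interval, and a count when it changed by more than 1.5 times; 98.6% of 1280 list medians, 97.6% of 576 list sums between libraries and 97.4% of 4288 values of named genes did neither that nor turn in sign from a value of 1.5-fold or more. Sign turns of any size were 46, 49 and 179. The other values stayed less often: 76.2% of 42 gene counts, 82.1% of 28 shares chosen and 66.7% of 3 CV ratios did not move. A CV ratio counted as moved when its log2 value changed by more than 1.5 times. The number of higher genes was 556 when genes needed a UMI in 5% of kept cells and 131 in 20% (lower 130), 86 at 2-fold (lower 75), 195 without the 5% of cells with the most UMIs (lower 119), 140 against UMI-matched cells (lower 124) and 165 in cells under 1% granule UMIs. Shares chosen were 4.50% (WT) and 5.56% (KO) with 5% of cells taken, 18.7 and 21.4% with 20%, by construction, and 13.5% (KO) in cells with 1000 or more genes. In the KO-labelled library the secondary granule median was −2.76 and that of mature granulocytes −2.77 with 5% of cells, the latter −2.71 with 1000 or more genes, and the former −1.17 without the cells with the most UMIs; the WT secondary granule median was −1.56 in cells chosen on thinned counts. Summed levels of KO over WT were −0.87 (secondary granules) and −0.91 (mature granulocytes) with 1000 or more genes.

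The alternatives limited to cells low in granule UMIs or defined by cycle UMIs, on thinned ratios and without red cell and platelet transcripts were added after the data were seen. In cells under 1% granule UMIs the mature granulocyte median was 0.12 (WT, turned in sign) and −0.43 (KO), that of secondary granules −0.034 and −0.43, and that of G2 and mitosis −0.039 (WT). In cells of 0.2% or more S phase and under 0.5% G2 and mitosis UMIs, the S phase median was 0.16 (WT) and the G2 and mitosis medians turned to 0.32 and 0.74. These limits were set on the same genes. *Fam111a* (WT) turned to −0.075 with 5% of cells and −0.14 with 1000 or more genes; against UMI-matched cells *Tyms* (WT) turned to −0.018 and *Apoe* to 0.30 (WT) and 1.03 (KO); the cause was not tested. The CV ratio was 0.039 after thinning; the cause was not tested. Choosing cells on thinned counts kept 468 of the 741 cells (63.2%). A stricter S phase choice left 9 cells and was not used. Depth limits the choice of a single cell, which rested on 2 to 50 UMIs of the 6 genes.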

Other observations

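The 309 genes higher in chosen cells in both libraries included 181 that were in none of the lists, and the 229 lower genes included 183. The cells chosen by all 6 genes at their own depth and those chosen on counts thinned to 1000 UMIs shared 468 cells, 63.2% of the former and 65.5% of the latter.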
